A study of Mus musculus with 6 samples.

Results

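Microvilli are finger-like folds of the cell surface, and the genes described here encode proteins that bundle and join them or bind their membrane. The list holds 10 of the 55450 genes of the count table. Cdhr2, Cdhr5, Ush1c, Anks4b and Myo7b belong to the intermicrovillar adhesion complex, and Vil1, Espn and Eps8 to the actin core. The list is completed by the membrane motor Myo1a and the membrane-binding Baiap2l2. It was chosen because Myo7b and Baiap2l2 rise from the detection floor in knockout liver, so the values of those genes in knockout against wild type (WT) are given as a description with no test. The other 8 members were added for their roles, with results of these data known.

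Livers of 6 mice of the strain given as C57BL/J were sequenced, 1 library per mouse. The 3 knockout mice were LKB1 fl/fl (LKB1 is the kinase encoded by Stk11), the 3 WT mice carried normal alleles, and all of them received AAV8 Cre at 6 weeks of age, so the controls share the virus and the recombinase. The left lobe was taken 4 weeks later, at 10 weeks of age, and polyA RNA was measured. The promoter that drives Cre is not given in the sources used here, and whole lobe tissue holds all liver cell types, so in these bulk samples fewer cells of a type and less RNA per cell cannot be told apart.

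In a brush border, actin bundles fill each microvillus, and the protocadherins CDHR2 and CDHR5 form adhesive links between the tips of neighbouring microvilli. Inside the tip the scaffolds USH1C and ANKS4B and the motor MYO7B hold these protocadherins to the actin core. Brush borders are best known from intestinal and kidney epithelium, while hepatocytes carry microvilli on the bile canaliculus and on the sinusoidal face. In cultured intestinal cells, active LKB1 is known to set off the formation of a brush border through the ezrin kinase STK26.

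Total counts ran from 47659122 to 56147667 per library. Values are in CPM, counts scaled to a common library total by the trimmed mean of M-values, and 3 counts, taken as the detection floor, correspond to 0.0515 to 0.0641 CPM. Stk11 was at 22.1, 14.4 and 11.4 CPM in knockout replicates 1 to 3 and at 66.1, 64.2 and 69.7 CPM in WT replicates 1 to 3. Replicate 1 of each group had Xist counts (42472 and 29243) and at most 6 Y-linked counts and is called the Xist pair, whereas the other 4, the Y-linked libraries, had 6146 to 8199 Y-linked counts. Knockout 2 and 3 also stood apart in interferon-induced genes, chosen after their values were seen: Isg15 was at 242 and 107 CPM there, against 14.5 CPM in knockout 1 and 7.12 to 10.7 CPM in the WT libraries. Hepatocyte markers were present in every library, with 0 of 10 called by edgeR (4 at an unadjusted p under 0.05, 6 called by DESeq2 and 1 by limma voom). Over all 14539 genes tested, the last 3 numbers were 3817, 2290 and 432. Of the 10, 8 had estimates below 0, 7 lay fully lower in knockout (15.5% of all genes tested did) and 2 fully higher, and the summed level was 36015 to 95954 CPM in knockout against 112383 to 157076 CPM in WT. The part of this shift in the results on the microvillus genes was not tested. Hnf4a, a hepatocyte transcription factor, was at 542 to 670 CPM in knockout against 524 to 539 CPM in WT, and Alb, the albumin gene, was at 50550, 10394 and 17534 CPM in knockout against 57064 to 95626 CPM in WT.

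Myo7b encodes the motor of the adhesion complex, an unconventional myosin that carries its cargo to microvillus tips. It had 299, 692 and 260 counts in knockout 1 to 3 and 1, 1 and 0 counts in WT 1 to 3, which is 5.13, 12.5 and 5.52 CPM against 0.0197, 0.0193 and 0 CPM. Every knockout library lay above every WT library, and knockout 2 held more than the other knockout libraries. With only 2 WT counts in all, the ratio of knockout to WT was 580, with an exact 95% interval from 160 to 4798 that covers counting error only.

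Baiap2l2 encodes a membrane-binding protein of the inverse BAR-domain family that is known from intestinal epithelium. Its counts were 73, 465 and 257 in knockout 1 to 3 and 1, 0 and 0 in WT 1 to 3. In CPM the knockout libraries were at 1.25, 8.37 and 5.45, so the library with Xist counts was the lowest of the group and still above all WT libraries. The single WT count gives a ratio of 738, with an exact 95% counting interval from 132 to 29173.

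Both genes were chosen for a rise from the floor, so their place in the following group was fixed in advance. Of 38217 genes with at most 3 counts in every WT library, 37183 had at most 3 counts in every knockout library too. Of the 38217, 19 had a mean of at least 1 CPM in knockout, and in 18 of these the lowest knockout library was also above 3 counts. The reverse, genes silent in knockout alone, was not counted. Expected counts become fractional where reads are split between genes, and the deposited counts of all 10 members were whole numbers in all 6 libraries. Myo7b (chromosome 18, 31959234 to 32036961) overlaps Gm16344 and Gm16345, both listed at 0 in all libraries, and the nearest coding gene, Lims2, lies 615 nt away on the opposite strand. Lims2 was at 30.5 to 41.7 CPM in knockout against 44.6 to 53.0 CPM in WT. Baiap2l2 (chromosome 15, 79258195 to 79285537) overlaps no other gene, and Pla2g6, 691 nt away on the same strand, was at 31.9 to 34.7 CPM in knockout against 34.7 to 47.9 CPM in WT. The neighbours did not show the pattern of either gene.

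**Figure D1:**
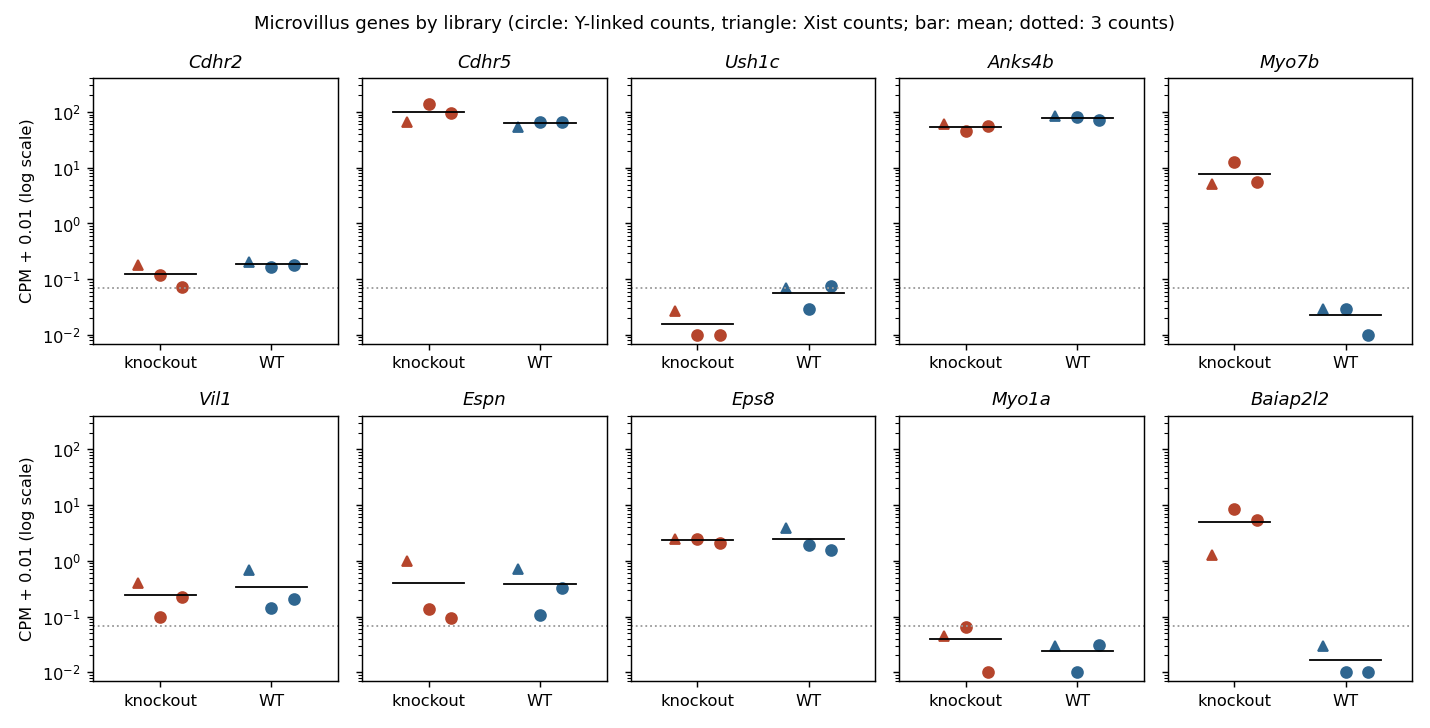
CPM plus 0.01 on a log axis for the 10 genes, with knockout libraries in red, WT libraries in blue, triangles for the Xist pair, circles for the Y-linked libraries, bars for group means and a dotted line at 3 counts. Myo7b and Baiap2l2 are above the line in all 3 knockout libraries and below it in WT, while Ush1c and Myo1a hold at most 3 counts in every library. The line is drawn at the mean of the libraries' floors.

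The adhesion complex was present in part. Cdhr5 and Anks4b were abundant in every library, whereas Cdhr2 and Ush1c were near the floor in both groups. Their promoters are shown because these 4 genes encode partners of 1 complex and fall into an abundant and a near-silent pair in the same livers. The sequences come from RefSeq (GRCm38.p6), from 250 bases before to 50 bases after the start, 5′ to 3′ on the gene's strand, and 7 of the 10 members had an entry. Capitals mark matches on either strand to CAAAGT (core of the HNF4 motif), GTTAAT (from the HNF1 motif), TGACG (from the CRE motif) or GGGCGG (GC box).
Cdhr5: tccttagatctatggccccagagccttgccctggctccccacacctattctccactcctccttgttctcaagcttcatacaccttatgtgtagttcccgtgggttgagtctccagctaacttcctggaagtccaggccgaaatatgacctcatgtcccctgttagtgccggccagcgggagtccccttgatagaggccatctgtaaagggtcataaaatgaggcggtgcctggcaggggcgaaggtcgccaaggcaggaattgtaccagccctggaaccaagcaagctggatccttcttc
Anks4b: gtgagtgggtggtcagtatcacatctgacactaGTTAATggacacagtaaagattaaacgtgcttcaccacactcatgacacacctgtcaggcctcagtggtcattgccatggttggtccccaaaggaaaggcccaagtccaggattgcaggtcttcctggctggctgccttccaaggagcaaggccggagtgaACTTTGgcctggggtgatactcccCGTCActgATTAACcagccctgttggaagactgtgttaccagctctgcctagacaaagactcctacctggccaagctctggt
Cdhr2: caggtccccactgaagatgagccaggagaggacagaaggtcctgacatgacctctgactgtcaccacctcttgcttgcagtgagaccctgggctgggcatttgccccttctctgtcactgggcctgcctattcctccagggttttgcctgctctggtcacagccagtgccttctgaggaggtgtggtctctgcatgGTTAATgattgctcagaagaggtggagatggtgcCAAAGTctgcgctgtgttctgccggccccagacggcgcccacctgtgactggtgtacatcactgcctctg
Ush1c: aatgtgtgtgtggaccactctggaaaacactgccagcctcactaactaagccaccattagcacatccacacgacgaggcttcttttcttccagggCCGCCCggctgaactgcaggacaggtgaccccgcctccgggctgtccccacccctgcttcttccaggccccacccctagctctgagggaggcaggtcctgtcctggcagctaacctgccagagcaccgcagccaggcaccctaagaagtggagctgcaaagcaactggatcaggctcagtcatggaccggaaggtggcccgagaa
These windows are chr7:141276737-141277036 (minus strand) for Cdhr5, chr7:120173608-120173907 (plus) for Anks4b, chr13:54701213-54701512 (plus) for Cdhr2 and chr7:46238441-46238740 (minus) for Ush1c.

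HNF4 and HNF1 are factors of hepatocytes and enterocytes, and CRE is the element bound by CREB. The Anks4b window held 2 matches to GTTAAT, 1 to CAAAGT and 1 to TGACG, at positions -217, -24, -56 and -32 (first base of the match, with the start as 0). Cdhr2, near the floor, held 1 match to GTTAAT and 1 to CAAAGT, and Ush1c held 1 GC box. Cdhr5 held no match to any of the 4. The same was found for TGACGTCA, the whole CRE. The longer HNF4 motif, CAAAGTCCA, had no match in the Cdhr5 window. The TATA box, TATAAA, had none there either. Of 32851 RefSeq promoters of the same length, 14.4% held CAAAGT, 7.10% GTTAAT, 20.8% TGACG, 35.7% GGGCGG, 13.6% TATAAA, 1.79% TGACGTCA and 0.475% CAAAGTCCA, with TGACG counted also where it lies within TGACGTCA and CAAAGT within CAAAGTCCA. A match is a match of letters only, and no motif was held by both abundant genes.

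Cdhr5, 1 of the 2 protocadherins of the tip links, was at 64.8, 139 and 96.4 CPM in knockout 1 to 3 and at 52.9, 67.2 and 66.7 CPM in WT 1 to 3. Knockout 2 and 3 lay above all WT libraries, while knockout 1 lay within the WT range, so the groups overlapped. Knockout exceeded WT by 0.69 ± 0.278 on the log2 scale (SE; adjusted p = 0.176 in edgeR's quasi-likelihood test). Over the alternatives the adjusted p in edgeR, DESeq2 and limma voom ran from 0.0194 to 0.383. It passed the threshold of 0.05 without knockout 1 (0.92, adjusted p = 0.0194) and among the Y-linked libraries (0.81, adjusted p = 0.0261). These fits of edgeR called 4473 of 14833 and 4847 of 14546 genes tested, so nothing particular to Cdhr5 is read from them. In the Xist pair the log2 ratio was 0.29.

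Cdhr5 (chromosome 7, 141269083 to 141276786) has Irf7, an interferon-induced transcription factor gene, as its neighbour 2602 nt downstream on the same strand. Irf7 was at 47.5, 614 and 413 CPM in knockout 1 to 3 and at 26.7 to 32.2 CPM in WT, so that Cdhr5 and Irf7 had the same order among the knockout libraries. Ifit1, another interferon-induced gene, chosen after its values were seen, had that order too, at 24.1, 288 and 209 CPM, with 8.58 to 13.3 CPM in WT. The part of the interferon response, or of transcription across the neighbouring gene, in the Cdhr5 counts was not tested.

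Anks4b encodes the scaffold that joins USH1C to MYO7B. It was at 61.7, 44.8 and 57.1 CPM in knockout 1 to 3 and at 85.5, 80.5 and 72.3 CPM in WT 1 to 3. All knockout libraries lay below all WT libraries, the opposite order to Myo7b. The log2 fold change was -0.54 ± 0.155 (SE; adjusted p = 0.0929 in edgeR, 0.0222 to 0.283 over the alternatives). The call was made by DESeq2 (adjusted p = 0.0277) and by edgeR without knockout 1 (-0.65, adjusted p = 0.0222). It was also made by edgeR among the Y-linked libraries (-0.59, adjusted p = 0.0330). In that order, these fits called 2290 of 14539, 4473 of 14833 and 4847 of 14546 genes tested. The log2 ratio of Anks4b in the Xist pair was -0.47.

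Cdhr2, the other protocadherin, had 10, 6 and 3 counts in knockout and 10, 8 and 8 counts in WT. Ush1c, the PDZ scaffold harmonin, had 1, 0 and 0 counts in knockout and 3, 1 and 3 counts in WT. Both genes were too low to enter the test, and no fold is given for Ush1c because both groups lie at or under the floor. Calml4, a light chain of MYO7B that is outside the 10 members, was at 0.89, 0.50 and 0.30 CPM in knockout against 0.32 to 0.58 CPM in WT, and its log2 fold change was 0.35 (95% interval -0.80 to 1.5). In the knockout libraries Myo7b was thus measured together with Cdhr5 and Anks4b but with hardly any transcript of Cdhr2 or Ush1c.

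Levels of different genes were compared per kilobase of annotated exon. In knockout, Cdhr5 was at 36.6 ± 13.7, Anks4b at 13.98 ± 2.23, Baiap2l2 at 1.84 ± 1.31 and Myo7b at 1.16 ± 0.623 CPM per kilobase (SD, n = 3). The median of the genes tested was 2.34 CPM per kilobase in knockout and 2.30 in WT, so Cdhr5 and Anks4b lay above it in both groups and Myo7b and Baiap2l2 below it in knockout. In WT, Cdhr5 was at 22.7 ± 2.97 and Anks4b at 20.4 ± 1.72 CPM per kilobase, close to each other within their spread. Anks4b was the higher of the pair in WT 1, Cdhr5 in WT 2, WT 3 and each knockout library. Among the genes tested, the level of Myo7b stood at percentile 36.6 and that of Baiap2l2 at 45.0 in knockout. Vil1, Espn, Cdhr2, Ush1c and Myo1a were at most at percentile 6.21 in either group.

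Of the genes of the actin core Vil1, Espn and Eps8 were tested. By edgeR, DESeq2 or limma voom 0 were called, with 0 at an unadjusted p under 0.05. The 14539 genes tested held 490 called by edgeR, 2290 by DESeq2, 432 by limma voom and 3817 at such a p. Eps8, which caps and bundles actin at microvillus tips, was at 2.40, 2.50 and 2.04 CPM in knockout and at 3.94, 1.89 and 1.58 CPM in WT. The groups overlapped because WT 1 held more Eps8 than any other library, and the log2 fold change was -0.10 (95% interval -0.98 to 0.79, adjusted p = 0.891 in edgeR). Without WT 1 it was 0.41 and in the Y-linked libraries 0.38, with adjusted p-values of 0.408 and 0.282 in edgeR.

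Vil1 encodes villin, which bundles and severs actin. It had 23, 5 and 10 counts in knockout and 34, 7 and 9 in WT, and its range overlaps Usp37 on the opposite strand, which had 332 to 421 counts per library. The log2 fold change of Vil1 was -0.51 (95% interval -2.33 to 1.32), and it was 0.51 without WT 1. Espn, which encodes the bundling protein espin, had 57, 7 and 4 counts in knockout and 35, 5 and 15 in WT, with a log2 fold change of 0.12 (95% interval -2.32 to 2.56) that was -1.78 without knockout 1. Both genes were highest in replicate 1 of each group, the Xist pair. Myo1a, the brush border myosin that ties the membrane to the actin core, had 2, 3 and 0 counts in knockout and 1, 0 and 1 in WT, at or under the floor throughout.

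Of the 10 members 2 were called, both higher and both those that chose the list, where 2.15% of the 14539 genes tested were called as higher, 1.22% as lower and 3.37% in either direction. Because the list was chosen on this contrast, nothing is read from that count. Of the other 8 members 5 could be tested and 0 were called by edgeR, with 2 at an unadjusted p under 0.05 (Cdhr5 and Anks4b), 1 called by DESeq2 and 0 by limma voom. The whole set of 14539 genes held 3817 at such a p, 2290 called by DESeq2 and 432 by limma voom. Among these 5 members, 2 log2 fold changes were above 0 and 3 below, and their median was -0.10 (the value of Eps8), beside 0.01 over all genes tested. Groups did not overlap for 4 members, 2 higher (Myo7b and Baiap2l2) and 2 lower (Anks4b and Ush1c, the latter on at most 3 counts), where 16.9% of the tested genes were fully higher, 15.5% fully lower and 32.4% either.

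**Figure D2:**
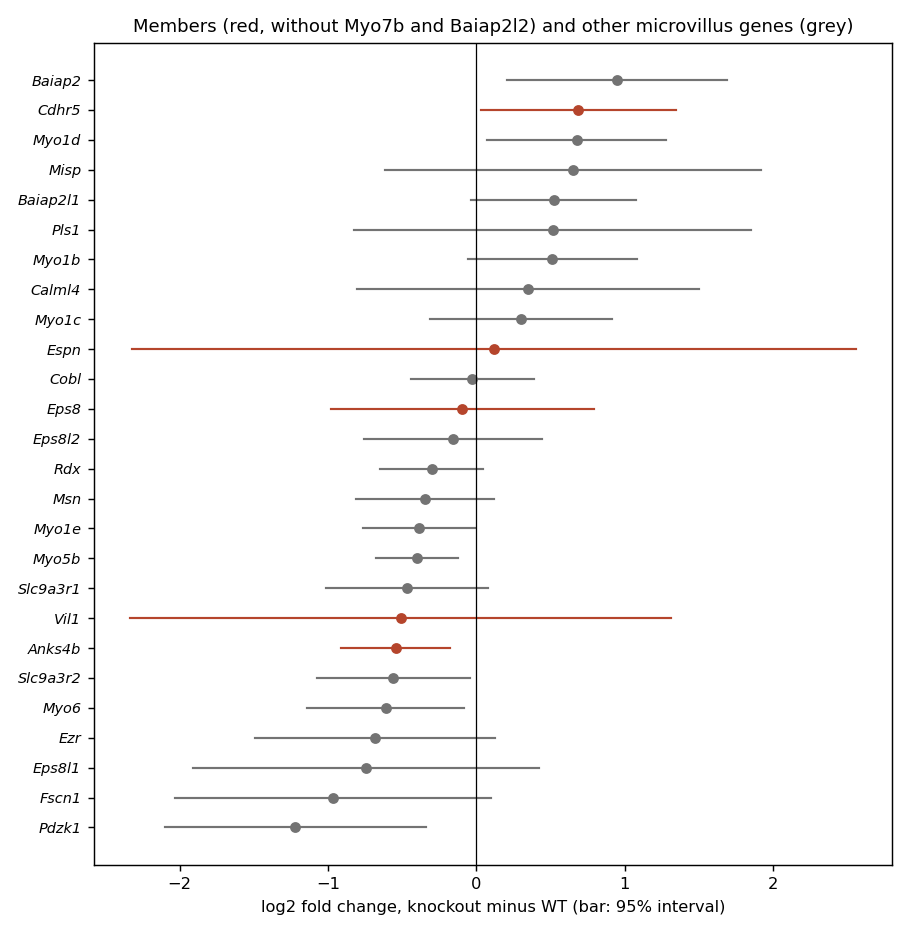
Log2 fold change of knockout minus WT with its 95% interval, for the members tested other than Myo7b and Baiap2l2 in red and the other microvillus genes tested in grey. Baiap2 has the highest value at 0.95 and Pdzk1 the lowest at -1.22, and the intervals of Espn and Vil1 are the widest among the members.

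The size of the difference was also compared between the Xist pair and the Y-linked libraries. With an offset of 0.1 CPM, Myo7b had a log2 ratio of 5.45 in the Xist pair and 6.37 in the other libraries, and Baiap2l2 one of 3.50 and 6.13. In WT these 2 genes were at most at 0.0197 CPM, below the offset, so the ratios mostly restate the knockout level and no test is read for them. Of the other members 5 entered a test of the difference between these states (group by state). It called 0 of the 5 in edgeR and in limma voom, beside 2.9% of all genes called by edgeR. DESeq2 gave an adjusted p only to Cdhr5, Anks4b and Eps8 and called 0 of them. Of the 5, 1 was at an unadjusted p under 0.05 in edgeR. That member was Eps8, with log2 ratios of -0.69 and 0.37 (adjusted p = 0.212 in edgeR). For the Xist pair minus the remaining libraries, Cdhr5 and Eps8 had estimates of -0.52 and -1.10 in the main fit. Without knockout 3 these were -0.77 and -1.24, and no call is read from the fit without knockout 3. In that fit 3 of the 4 combinations of group and state hold 1 library each, and the spread between replicates comes from WT 2 and WT 3 alone.

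**Figure D3:**
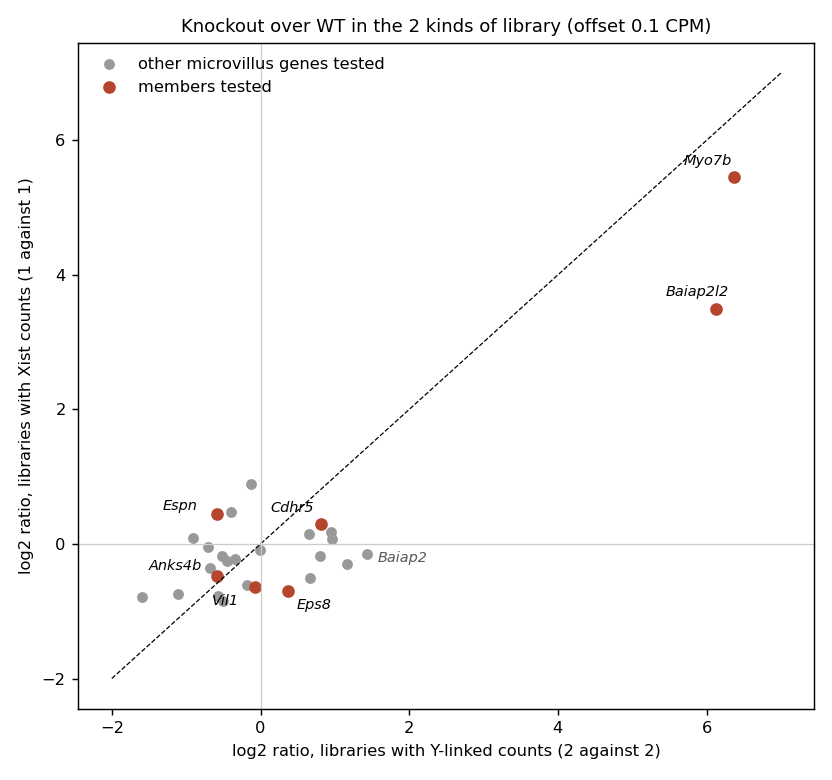
Log2 ratio of knockout over WT (offset 0.1 CPM) in the Xist pair against that in the Y-linked libraries, for members tested (red) and other microvillus genes tested (grey); the dashed line marks equal ratios. Myo7b and Baiap2l2 lie far from the rest at 6.37 and 6.13 on the x axis, and Baiap2 has 1.43 there but -0.15 on the y axis.

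The other genes of the microvillus were taken from lists of adhesion, bundling, tip and linker proteins. Of 24 such genes outside the members 21 were tested, and 0 were called by edgeR, 2 by DESeq2 and 0 by limma voom, with 7 at an unadjusted p under 0.05. DESeq2 called 2290 and limma voom 432 of all 14539 genes tested, and 3817 were at an unadjusted p under 0.05. The median log2 fold change of the 21 genes was -0.30, with 8 estimates above 0 and 13 below. In the Y-linked libraries alone 12 of them were called, 7 higher and 5 lower, where 33.3% of all genes were called. Of the 24 genes 6 lay fully lower in knockout, all of them linkers, and 1 fully higher, where 15.5% and 16.9% of all genes tested did. The fully higher gene held at most 3 counts in any library and did not enter the test, and the direction of the list was not tested.

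The relatives of Baiap2l2 were expressed in both groups. Baiap2, which encodes IRSp53, a linker of small GTPases to actin in protrusions, was at 26.2, 58.2 and 47.5 CPM in knockout and 29.2, 19.8 and 19.3 CPM in WT. Knockout 2 and 3 were the highest and knockout 1 lay within the WT range. Its log2 fold change was 0.95 ± 0.312 (SE, adjusted p = 0.120 in edgeR). In the Y-linked libraries it was 1.43 (adjusted p = 0.00177 in edgeR), where 33.3% of all genes were called. The log2 ratio of Baiap2 in the Xist pair was -0.15. Baiap2l1, the relative that works with EPS8 in microvillus growth, was at 24.2, 41.3 and 46.4 CPM in knockout against 24.9 to 27.4 CPM in WT, and its log2 fold change was 0.52 (adjusted p = 0.215 in edgeR). Myo7a, the relative of Myo7b in stereocilia, was at 9.81 to 14.8 CPM in knockout against 9.22 to 15.1 CPM in WT, and its log2 fold change was -0.03 ± 0.231 (SE).

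Among the proteins that link the membrane to the actin core, 12 of 13 were tested and 0 were called by edgeR. Of the 12, 6 were at an unadjusted p under 0.05, 1 was called by DESeq2 and 0 by limma voom. For all 14539 genes tested, the same counts were 490, 3817, 2290 and 432. In 6 of the 13, already counted among the other microvillus genes above, the highest knockout library was below the lowest WT library. In 0 the reverse held, where 15.5% of all genes tested were fully lower and 16.9% fully higher. Pdzk1, a scaffold of apical transporters, was at 50.2, 18.1 and 24.7 CPM in knockout against 63.2 to 87.0 CPM in WT (log2 fold change -1.22 ± 0.373, adjusted p = 0.105 in edgeR). Myo5b, the motor of apical recycling vesicles, was at 21 to 24.3 CPM in knockout and at 27.5 to 32 CPM in WT libraries (-0.40 ± 0.118, adjusted p = 0.0966 in edgeR). Radixin, the main linker of the ERM family in hepatocytes, is encoded by Rdx, which was at 180 to 206 CPM in knockout against 226 to 265 CPM in WT. Ezr, for ezrin, was at 2.21 to 3.98 CPM in knockout against 3.64 to 6.88 CPM in WT, and the groups overlapped.

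Of 6 genes on the route from LKB1 to ezrin known from cultured intestinal cells 5 were tested, and 0 were called by edgeR. Of the 5, 1 was at an unadjusted p under 0.05, 1 was called by DESeq2 and 0 by limma voom. Among all 14539 genes tested, these counts were 490, 3817, 2290 and 432. Rap2a, a small GTPase of that route, was at 14.2, 5.69 and 9.44 CPM in knockout and 17.9, 30.1 and 32.3 CPM in WT. All knockout libraries lay below all WT libraries, and the log2 fold change was -1.45 ± 0.366 (SE, adjusted p = 0.0746 in edgeR). Stk26, the ezrin kinase, was at most at 0.375 CPM in any library.

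Of 14 Usher and stereocilia genes, which encode the hair cell counterparts of the adhesion complex, 5 were tested and 0 were called by edgeR, DESeq2 or limma voom, with 0 at an unadjusted p under 0.05. Of 14 apical regulators and transcription factors 12 were tested and 0 were called by edgeR (2 at an unadjusted p under 0.05, 2 called by DESeq2 and 0 by limma voom). Beside them, 3817 of all 14539 genes tested were at such a p, 2290 were called by DESeq2 and 432 by limma voom. Cdx1 and Cdx2, the intestinal homeobox factors that drive brush border genes in the gut, were listed at 0 in all 6 libraries.

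Markers of epithelia with a brush border were examined beside the rise of Myo7b and Baiap2l2. Of 13 kidney markers 12 were at or under the floor in all libraries and 8 were at 0, among them Umod and Kap, and their summed level was 0.255 to 0.918 CPM in knockout against 0.414 to 1.67 CPM in WT. Of 9 hair cell markers 8 were at or under the floor and 5 at 0, and Myo7a carried the sum of 9.85 to 14.8 CPM in knockout and of 9.26 to 15.2 CPM in WT. The single tested gene of each list, Lrp2 and Myo7a, was called by neither edgeR, DESeq2 nor limma voom (0 at an unadjusted p under 0.05). Of 16 enterocyte genes Lct, Sis, Alpi and Cdh17 were at or under the floor in all libraries, and the sum of the list was 344 to 625 CPM in knockout against 530 to 590 CPM in WT, carried by genes that liver also expresses, such as Mgam, Anpep, Dpp4 and Enpep. Of the enterocyte list 9 genes were tested and 0 were called by edgeR (3 at an unadjusted p under 0.05, 2 called by DESeq2 and 0 by limma voom). Across all 14539 genes tested, the last 3 numbers were 3817, 2290 and 432.

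The enterocyte list held differences in both directions. Of it, 6 of the 9 tested genes had estimates below 0, 2 genes (Mgam and Anpep) lay fully lower in knockout and 2 (Treh and Tmprss15) fully higher. In the Y-linked libraries alone 5 genes were called lower and 2 higher by edgeR, where 33.3% of all genes were called. Mme, which encodes the peptidase neprilysin, was at 43.7, 1.42 and 3.08 CPM in knockout 1 to 3 and at 43.5 to 51.5 CPM in the WT libraries, low in knockout 2 and 3 alone. Treh, for the disaccharidase trehalase, was at 2.16, 22.6 and 20.4 CPM in knockout and 0.0591, 1.37 and 1.33 CPM in WT. Every knockout library was above every WT library, and the log2 fold change was 4.03 ± 1.13 (SE, adjusted p = 0.0896 in edgeR). Tmprss15, for enteropeptidase, was at 0.0172, 0.936 and 0.255 CPM in knockout and at 0 in WT, too low for the test over 6 libraries.

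**Figure D4:**
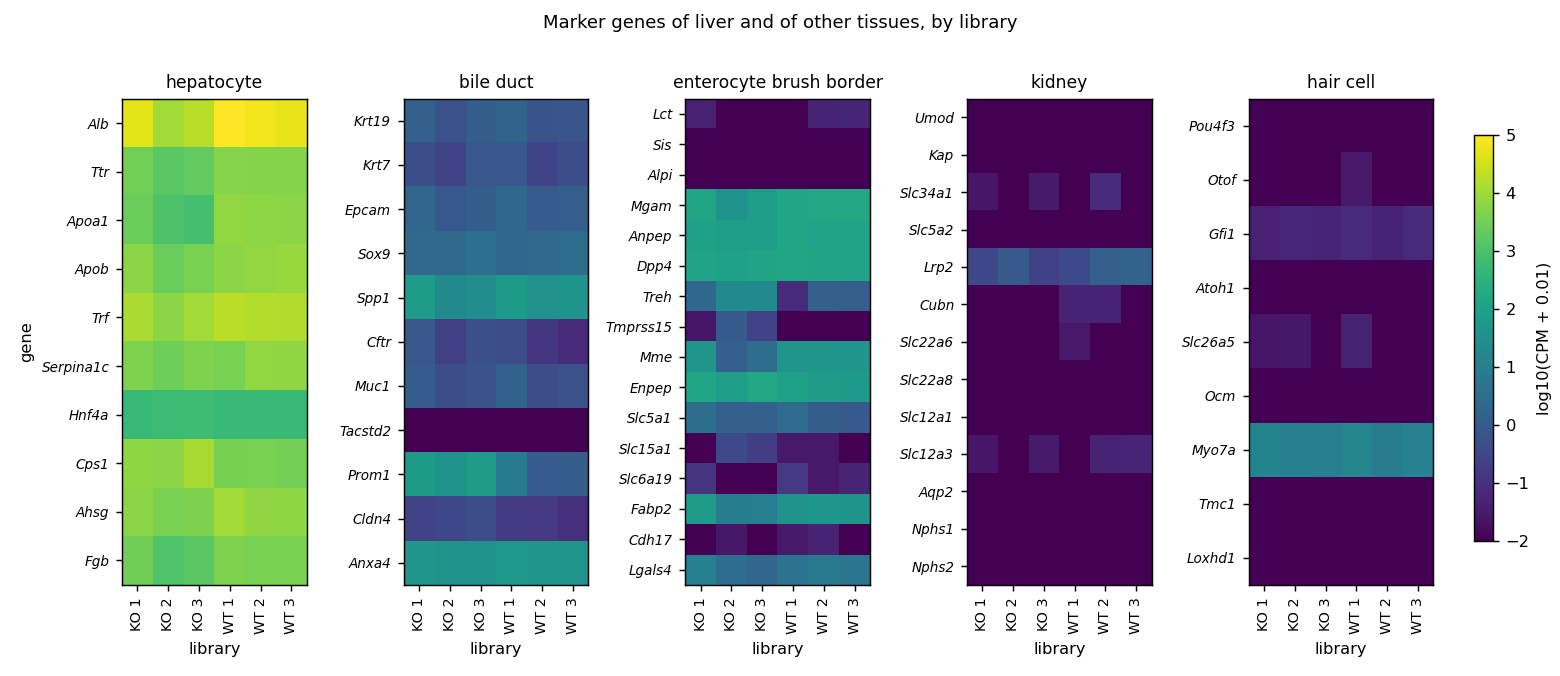
Log10 of CPM plus 0.01 (colour) for markers of hepatocytes, bile duct, enterocyte brush border, kidney and hair cells (rows) in the 6 libraries (columns). Hepatocyte markers are high in all libraries, 12 of 13 kidney markers are at or under 3 counts, and Prom1 in the bile duct panel is higher in the 3 knockout libraries.

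Bile duct cells also bear apical microvilli. Of 12 bile duct markers 11 were tested and 1 was called by edgeR, Prom1 (3.37% of all genes tested were called), and the summed level of the list was 111 to 195 CPM in knockout against 100.4 to 149 CPM in WT. The list had 5 estimates above 0 and 6 below, with a median of -0.05. Of its genes 2 lay fully higher in knockout and 1 fully lower, where 16.9% and 15.5% of all genes tested did. In the Y-linked libraries alone 2 were called higher and 2 lower by edgeR, where 33.3% of all genes were called. Prom1 encodes prominin-1, a membrane protein of microvilli and other protrusions. It was at 63.5, 39.2 and 68.4 CPM in knockout and 6.98, 1.08 and 1.13 CPM in WT, with every knockout library above every WT library. It rose by 4.21 ± 0.794 on the log2 scale (SE, adjusted p = 0.0442 in edgeR). The call was lost without knockout 2 or 3 (adjusted p = 0.0995 and 0.169 in edgeR) and without WT 2 or 3 (0.178 and 0.170), and without WT 1 the log2 fold change was 5.68. Krt19 and Epcam, defining markers of bile duct cells, were at 0.576 to 1.36 and 0.828 to 2.06 CPM in knockout and at 0.656 to 1.79 and 0.983 to 2.27 CPM in WT, with overlapping groups. Cldn4, a claudin of tight junctions in the same list, lay fully higher in knockout at 0.257 to 0.467 CPM against 0.0855 to 0.158 CPM in WT, with a log2 fold change of 1.44 (adjusted p = 0.108 in edgeR). Cldn4, Krt19 and Epcam were chosen after their values were seen.

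On the canalicular membrane, the hepatocyte surface that carries microvilli, 3 of 10 transporter genes were called by edgeR, 2 higher and 1 lower, where 2.15% of all genes tested were called higher and 1.22% lower. Abcg5 and Abcg8, which together form the sterol exporter, were both higher in each knockout library and rose by 2.30 and 1.93 in log2 units (adjusted p = 0.0334 and 0.0329 in edgeR). Atp8b1, a phospholipid flippase, fell by 0.80, from 57.0 ± 3.09 CPM in WT to 32.7 ± 3.69 CPM in knockout (SD, n = 3; adjusted p = 0.0319 in edgeR). Each of these calls was lost when any 1 of knockout 2, knockout 3 and WT 1 to 3 was left out, with adjusted p-values from 0.0576 to 0.184 in edgeR.

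**Figure D5:**
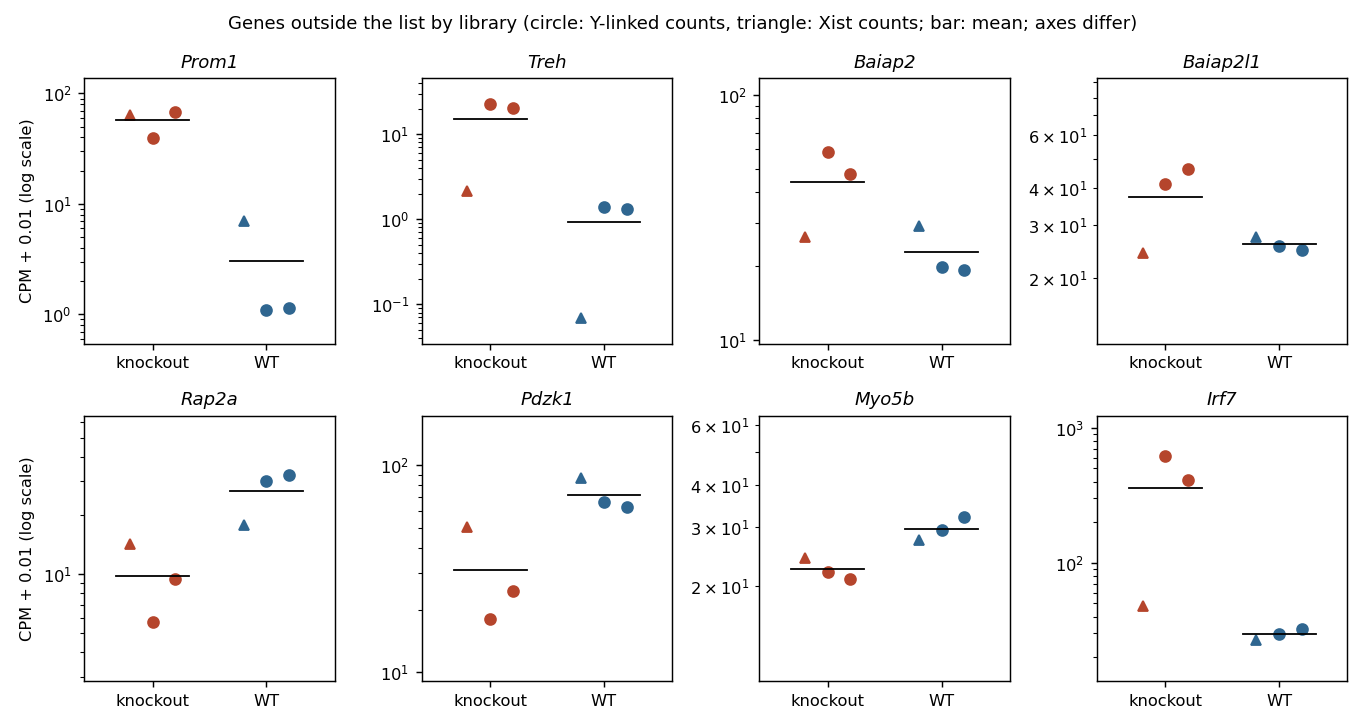
CPM plus 0.01 on log axes that differ between panels, for 8 genes outside the list, with the symbols of the plot of the members by library. Prom1, Treh and Irf7 are above WT in all 3 knockout libraries, Rap2a, Pdzk1 and Myo5b are below it, and Baiap2 and Baiap2l1 are above it only in knockout 2 and 3.

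The genes whose log2 CPM was most like that of Myo7b over the 6 libraries, among 11973 tested genes with a mean of at least 1 CPM, were Gm15459, Maf1, Gm379, Gtdc1 and Ly6d, with Pearson correlations from 0.995 to 0.998. Ly6d was at 17.0, 33.3 and 12.5 CPM in knockout against 0.366 to 0.631 CPM in WT, and Gm15459, a processed pseudogene whose reads may come from a near-identical copy, was at 453 to 617 and 16.0 to 19.0 CPM. For Baiap2l2 they were Fam53b, Uqcc3, Il33, Hip1r and Mthfd1l, with correlations from 0.997 to 0.999. Hip1r, which encodes a protein that joins clathrin coats to actin, was at 71.0, 151 and 122 CPM in knockout against 21.8 to 23.1 CPM in WT. Over libraries that fall into 2 groups these correlations mostly describe the gap between the groups, and they carry no test. No member of the list was among the 5 genes nearest to either.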

How the data were processed

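PolyA RNA of 6 liver libraries (3 knockout, 3 WT, separate mice) was sequenced, and the authors deposited expected counts per gene. The submitters' processing notes name bcl2fastq 2.17, cutadapt 1.18, STAR 2.7.0f and RSEM 1.3.1 and the build mm9, whereas all 55450 gene identifiers, with versions, are those of GENCODE M21 (GRCm38), from which positions and exon lengths were taken. The use of strand is not given in the sources used here. Groups and replicate numbers came from the titles, and 0 columns lacked a sample.

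Counts were rounded, and 14539 genes were kept by filterByExpr. Knockout was compared with WT over all 6 libraries by edgeR 4.0.16 (quasi-likelihood test, TMM scaling, no term beside the group) in R 4.3.3, with Benjamini-Hochberg adjustment over all genes and a threshold of 0.05. SE is the log2 fold change over the root of F. The interaction of group with Xist or Y-linked state used the same test. Alternatives were RLE factors, library size alone, other filters, DESeq2 1.42.0, limma voom (3.58.1), a replicate block, state as a term, the Y-linked libraries alone and leaving out each library. The scripts were tested on simulated data.

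The 10 members, the 12 gene lists and the state were chosen with earlier results of these data known. Named genes are the members, the called genes of each list (up to 5), the 5 genes most correlated with Myo7b and with Baiap2l2, Stk11, Alb and Hnf4a. Other list genes (Treh, Rap2a, Pdzk1, Baiap2 and the rest) and neighbours were chosen after their values were seen. A list gene is not reported here, though the counts of its list hold it.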

Additional observations from a re-analysis of the deposited data

Results flagged for a closer look

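The difference between knockout and WT was tested for a difference between the Xist pair and the Y-linked libraries, and 8 genes of the lists passed edgeR's interaction test. Of all 14539 genes tested, 421 (2.9%) passed. By list, 3 of 9 enterocyte genes tested passed, 3 of 10 canalicular transporters, 1 of 12 bundlers and tip proteins and 1 of 5 Usher and stereocilia genes. The Xist pair has a single library per group, and values are the log2 difference in the Xist pair minus that in the other libraries. Of the members other than Myo7b and Baiap2l2, 5 were tested and 0 passed. Baiap2, the relative of Baiap2l2, had a value of -1.59 (adjusted p = 0.0293), which was above 0.05 with library size alone as the scaling (0.0659 in edgeR). Adgrv1, an adhesion receptor of stereocilia, had 5.39 (adjusted p = 0.00738). Among genes of the enterocyte list, Mme had 4.16 (adjusted p = 0.0233), Fabp2 3.10 (adjusted p = 0.00541) and Lgals4 2.43 (adjusted p = 0.0488, but 0.0846 with library size alone and 0.0542 with the filter of at least 1 CPM in at least 3 libraries). Among canalicular transporters, Abcb1a had -2.15 (adjusted p = 0.0245), Abcg2 2.22 (adjusted p = 0.0128) and Abcg5 -1.86 (adjusted p = 0.0358). Without WT 2 the adjusted p of Baiap2, Mme, Lgals4, Abcb1a, Abcg2 and Abcg5 was 0.164, 0.0946, 0.225, 0.126, 0.0747 and 0.177, and without WT 3 it was 0.182, 0.0869, 0.192, 0.171, 0.0801 and 0.268, with 0.0503 for Adgrv1.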

How the results depend on the processing

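The number of genes called between knockout and WT (490) was 771 with no filter, 2290 in DESeq2, 105 with the replicate block, 1504 with the Xist or Y-linked state as a term and 4847 in the Y-linked libraries alone, and 6 to 4473 when 1 library was left out. Scaling by library size alone made 74.4% of the calls higher in place of 63.9%. Of the members 2 were called under every other scaling and filter and with the block, 3 in DESeq2, 1 in limma voom, 4 in the Y-linked libraries alone (33.3% of all genes were called there), and 0 to 4 when 1 library was left out (4 without knockout 1, 0 without WT 2, and 1 without knockout 3, WT 1 or WT 3). These counts hold Myo7b and Baiap2l2, which chose the list, so nothing is read from them. Of the other 5 members tested, 0 were called in edgeR's main fit, 1 in DESeq2 and 0 in limma voom. Of the other microvillus genes 2 were called in DESeq2, 2 with the state as a term and 12 in the Y-linked libraries alone. When 1 library was left out, 0 to 7 were called, 7 of them without knockout 1. The fit without knockout 1 called 4473 of all 14833 genes tested in it, so nothing is read from the counts of that fit. The interaction called 421 genes, 1607 with no filter, 984 in DESeq2 and 67 to 4679 when 1 of the Y-linked libraries was left out. The cause of these shifts was not tested.

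The sign of low members depended on the fit. The log2 fold change of Espn was -0.26 in limma voom, -0.20 with the block, -0.27 with the state as a term and between -1.78 and 0.94 when 1 library was left out. That of Eps8 was 0.0164 in limma voom, 0.0126 with the block, 0.0122 with the state as a term, 0.38 in the Y-linked libraries alone and -0.33 to 0.41 when 1 library was left out, and that of Vil1 was -1.16 to 0.51. The interaction estimates of Anks4b and Vil1 changed sign when 1 library was left out, with ranges from -0.0328 to 0.29 and from -1.12 to 0.0701.

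Same-numbered libraries are different animals, and their deviations from the group means correlated at 0.178, 0.0443 and 0.0679, so the numbers were not taken as pairs. The replicate block ended the calls of Prom1 (adjusted p = 0.0512), Abcg5, Abcg8 and Atp8b1 (0.0881, 0.0859 and 0.0671).

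Depth limits Ush1c, Myo1a and Cdhr2, whose differences were not detectable at these counts.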
